A study of Mus musculus with 12 samples.

Results

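Keratins are the intermediate filament proteins of epithelial cells. The genes described here are Krt5, Krt7, Krt8, Krt14, Krt15, Krt18, Krt19 and Krt20, chosen by name with earlier results of these data known. Of these 8 genes, 6 were read from the deposited table of 42329 gene entries, and Krt5 and Krt20 were not analysed here. The table holds 50 entries with a keratin symbol in all. The cells were MC38, an established mouse line that the labels call colon adenocarcinoma. They carried a control guide, sgControl, or the guide sgHcar1, named for the gene of a lactate receptor on the cell surface, and were given PBS or 20 mM lactate for 24 h. Each of the 4 groups (sgControl with PBS, sgControl with lactate, sgHcar1 with PBS, sgHcar1 with lactate) had 3 bulk RNA libraries. The labels say neither whether a guide population came from 1 clone nor whether the replicates were separate cultures, so the guide and any other difference between the populations cannot be told apart, and p-values measure only the spread between these libraries, which may be technical.

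Keratin filaments are built from obligate pairs of an acidic type I chain and a basic type II chain, and a chain without a partner is degraded. Krt8 (type II) with Krt18 (type I) is the pair of simple epithelia, including the lining of the colon, where Krt19 (type I) joins it. Krt20 (type I) is made there in the differentiated cells, and Krt7 (type II) is typical of ductal linings. Krt5 (type II) with Krt14 (type I) is the pair of the basal layer of stratified epithelia such as epidermis, and Krt15 (type I) is also made there. Mouse type I genes lie together on chromosome 11 and type II genes on chromosome 15, except Krt18, a type I gene that sits at the end of the type II cluster beside Krt8.

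The expression of 2 type I keratins divided the cells by guide. Krt14 was at 95.5 to 132 FPKM (fragments scaled by the length of the gene model and the fragments of the library, the deposited unit) in the sgControl libraries and at 0 in 5 of 6 sgHcar1 libraries. Krt18 was at 44.7 to 114 FPKM in the sgHcar1 libraries and at 0 in 5 of 6 sgControl libraries. Lactate went with less Krt14 in sgControl cells and with more Krt18 in sgHcar1 cells. Krt8, the usual partner of Krt18, stayed at or below 0.251 FPKM in all 12 libraries.

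Krt8 and Krt18 are next to each other in the RefSeq gene order, Krt8 on the minus strand at chr15:101996711-102004342 and Krt18 on the plus strand at chr15:102028216-102032026 (build GRCm38.p6, matched by symbol, whereas the gene identifiers of the expression table are those of a C57BL/6NJ annotation). Their promoter windows, 250 bases before to 50 bases after the annotated start, are shown because the pair is usually made together while these cells listed 1 gene of it at high and the other at very low FPKM. The sequences are RefSeq's and run 5′ to 3′ along the strand of each gene. Capitals mark matches, on either strand, to TATAAA (the letters of the TATA box) and CACCC (the core of the box bound by Krüppel-like factors).

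Krt8 promoter, chr15:102004293-102004592, minus strand: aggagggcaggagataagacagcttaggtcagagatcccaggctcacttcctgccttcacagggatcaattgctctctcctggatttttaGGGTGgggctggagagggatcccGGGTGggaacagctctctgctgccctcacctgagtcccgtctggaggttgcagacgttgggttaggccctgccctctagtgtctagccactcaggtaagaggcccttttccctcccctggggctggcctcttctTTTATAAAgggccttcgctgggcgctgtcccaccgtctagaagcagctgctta
Krt18 promoter, chr15:102027966-102028265, plus strand: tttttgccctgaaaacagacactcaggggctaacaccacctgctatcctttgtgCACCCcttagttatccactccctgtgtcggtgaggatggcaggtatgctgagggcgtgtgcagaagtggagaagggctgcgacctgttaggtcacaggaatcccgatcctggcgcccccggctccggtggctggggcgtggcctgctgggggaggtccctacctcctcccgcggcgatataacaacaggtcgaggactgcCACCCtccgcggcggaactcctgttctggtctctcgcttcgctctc

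The Krt8 window held TATAAA on both strands in overlapping letters, beginning at bases -1 and -3 from the annotated start, a motif found in 13.6% of 32851 RefSeq mouse promoter windows of this length. It held CACCC at 2 places on the opposite strand, beginning at bases -160 and -137. The Krt18 window held CACCC beginning at base -196 and again at base 4, and no TATAAA. The letters CACCC occur in 57.5% of the windows. Neither window held the CCAAT box, a motif of 37.4% of windows, or the box bound by Sp1 (GGGCGG), which 35.7% of windows hold. GC content was 58.0% for Krt8 and 61.3% for Krt18, against a median of 52.7% over all windows. The AP-1 motif TGAGTCA, searched with its reverse complement, was in neither window and in 5.20% of all. These matches describe letters in a window and were not tested for binding. Whether the Krt8 match to TATAAA, which lies at the annotated start itself, serves as a TATA box was not tested.

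**Figure D1:**
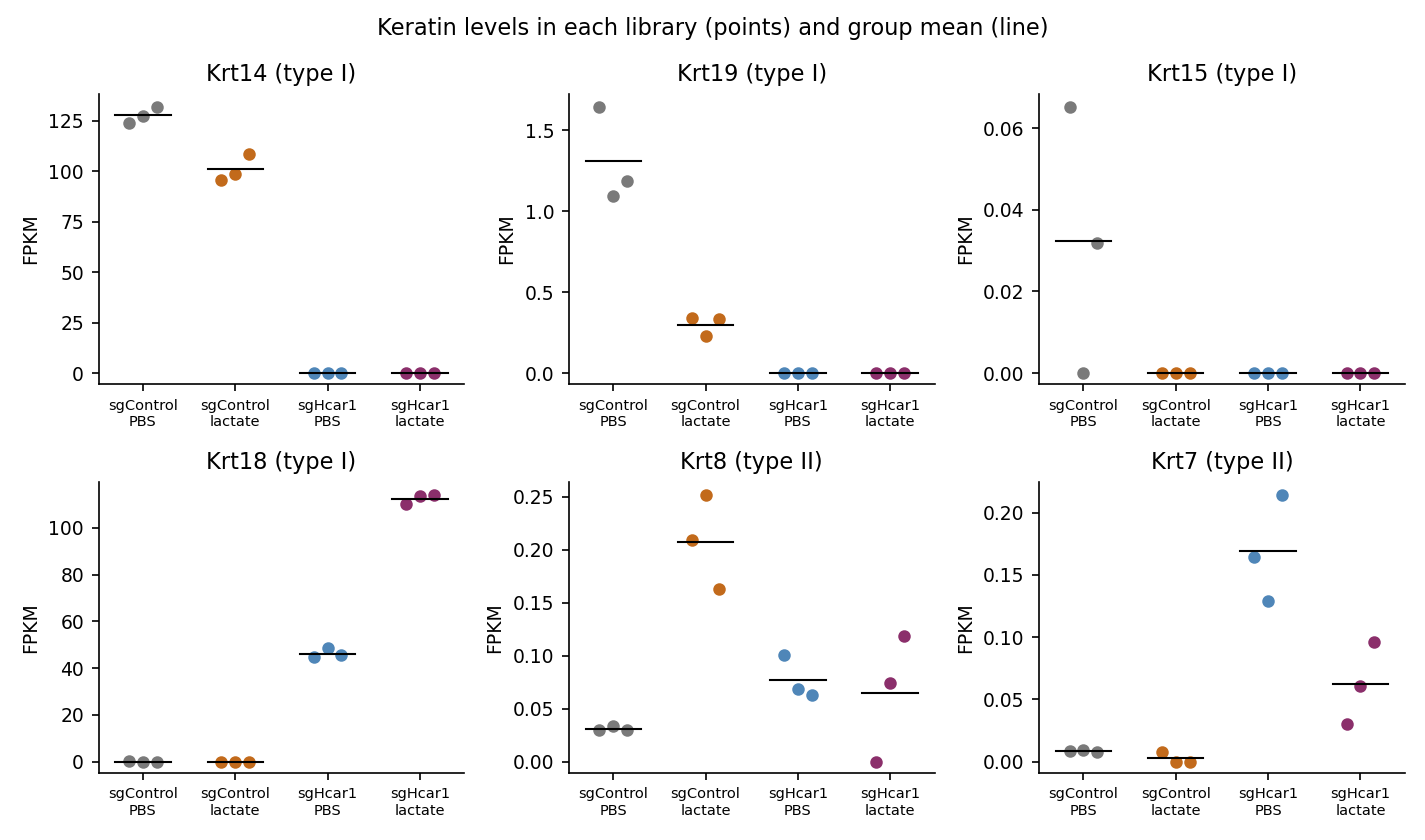
FPKM of each keratin gene in the 12 libraries, 1 panel per gene with its own linear vertical axis, grouped by guide and treatment. Points are libraries and horizontal bars are group means. Krt14 is high only in the sgControl groups and Krt18 only in the sgHcar1 groups, while Krt7, Krt8 and Krt15 stay below 1 FPKM throughout.

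Of the 6 genes, 3 (Krt14, Krt18 and Krt19) reached the minimum for the test over all genes, 1 FPKM in 3 libraries, each of them only through the guide in which it is high, so that their differences between guides follow in part from passing. Krt19 passed only through the sgControl PBS libraries, and its difference with lactate follows in part from this too. Values were tested as log2(FPKM + 1) with limma over 13736 genes, and p-values were adjusted by the Benjamini-Hochberg method over all of them. Changes on this scale understate those of genes at low FPKM. Most genes passed the adjusted threshold of 0.05. The share was 65.7% for lactate against PBS in sgControl cells, where 2 of the 3 keratins were called, both lower, and 72.2% for the same comparison in sgHcar1 cells, where 1 of the 3 was, as higher. The difference between the 2 lactate effects was called for 59.1% of genes and for all 3 keratins. sgHcar1 against sgControl was called for 76.7% of genes in PBS and 82.2% in lactate, again with all 3 keratins, 1 higher and 2 lower. By direction, 33.9% of genes were called higher and 31.9% lower with lactate in sgControl cells, and 36.8% and 35.4% in sgHcar1 cells. For the difference of the lactate effects, positive for all 3 keratins, the shares were 30.4% above 0 and 28.7% below. For the guide they were 38.2% higher and 38.4% lower in PBS, and 41.3% and 40.9% in lactate. Against this background the number of keratins called is no result of its own, and the values below are given for their size. The comparisons share groups, the sgControl PBS libraries entering 3 of the 5.

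Krt14, the type I chain of basal keratinocytes, lies at chr11:100203162-100207510 between Krt9 and Krt16. In sgControl cells with PBS its 3 libraries held 124, 127 and 132 FPKM (mean 128 ± 4.08, SD, n = 3). With lactate the sgControl libraries held 95.5, 98.7 and 108 FPKM (101 ± 6.68, SD, n = 3). The 2 sgControl groups did not overlap. The sgHcar1 libraries were listed at 0 apart from 1 PBS library at 0.0348 FPKM, a value that corresponds to 1 fragment. By mean level Krt14 ranked 367 among all genes in sgControl cells with PBS and 459 with lactate.

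Krt14 fell with lactate in sgControl cells by 0.34 on the log2 scale (SE 0.05, limma adjusted p = 5.66e-05), which left 0.790 of the PBS mean. In sgHcar1 cells the log2 difference was -0.02 ± 0.05 (SE, adjusted p = 0.782), at a level where no fall could have been measured. The difference between the lactate effects was 0.32 ± 0.06 (SE, adjusted p = 0.00138). This call was lost with a pseudocount of 0.1 (0.20, adjusted p = 0.295; adjusted p from 0.000237 to 0.295 over the alternatives run). Between guides, the sgHcar1 minus sgControl difference of Krt14 was -6.99 ± 0.05 (SE) in PBS and -6.67 ± 0.05 (SE) in lactate on the log2(FPKM + 1) scale, with adjusted p of 5.59e-16 and 8.82e-16. These 2 sizes are set by the pseudocount, since the sgHcar1 groups are at or near 0.

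Krt18, the type I chain of simple epithelia, showed the reverse. In sgHcar1 cells with PBS its libraries held 44.7, 48.4 and 45.4 FPKM (46.2 ± 1.96, SD, n = 3). With lactate the sgHcar1 libraries held 110, 113 and 114 FPKM (113 ± 2.0, SD, n = 3). No sgHcar1 library with lactate came near those with PBS. Of the sgControl libraries, 1 with PBS was at 0.0823 FPKM, which corresponds to 2 fragments, and the other 5 were listed at 0. Its rank by mean level in sgHcar1 cells was 1290 with PBS and 523 with lactate.

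Krt18 rose with lactate in sgHcar1 cells by 1.27 ± 0.04 (SE) on the log2 scale (limma adjusted p = 3.69e-10), a ratio of means of 2.44. In sgControl cells the difference was -0.04 ± 0.04 (SE, adjusted p = 0.459), with nearly all libraries at 0. The difference between the lactate effects was 1.31 ± 0.06 (SE, adjusted p = 4.08e-08). Krt18 was higher in sgHcar1 cells by 5.52 ± 0.04 (SE, adjusted p = 1.95e-15) in PBS and by 6.83 ± 0.04 (SE, adjusted p = 4.58e-16) in lactate. These sizes too are set by the pseudocount, and were 8.56 and 10.1 with a pseudocount of 0.1. Eif4b, the gene on the other side of Krt18 and a translation initiation factor, was expressed in all 4 groups, with means of 216 and 292 FPKM in sgControl and 138 and 231 FPKM in sgHcar1 cells (PBS first).

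**Figure D2:**
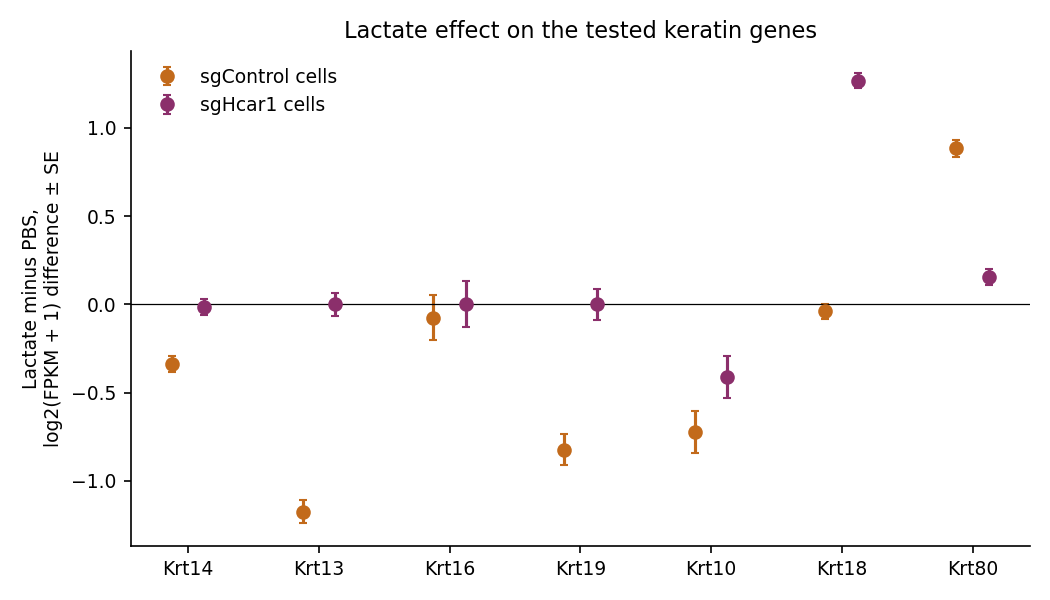
Change with lactate, lactate minus PBS in log2(FPKM + 1), for each tested keratin in sgControl and in sgHcar1 cells, with bars for the SE of the limma fit. Krt14, Krt19 and Krt13 lie below 0 in sgControl cells and Krt18 lies above 0 in sgHcar1 cells, and each of these genes sits at or near 0 for the guide in which it is hardly listed.

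Krt19, a type I keratin of simple epithelia and progenitor cells that has almost no tail domain, was low and present in sgControl cells. The PBS libraries held 1.65, 1.10 and 1.18 FPKM (1.31 ± 0.295, SD, n = 3) and the lactate libraries 0.338, 0.227 and 0.336 FPKM (0.300 ± 0.0637, SD, n = 3). The 2 groups did not overlap, and all 6 sgHcar1 libraries were listed at 0. Krt19 fell with lactate by 0.82 ± 0.09 (SE) on the log2(FPKM + 1) scale (limma adjusted p = 1.09e-05), and the PBS mean was 4.36 times the lactate mean. With a pseudocount of 0.1 that change was -1.81. The sgHcar1 minus sgControl difference was -1.20 ± 0.09 (SE, adjusted p = 2.55e-07) in PBS and -0.38 ± 0.09 (SE, adjusted p = 0.00238) in lactate, and it moved to -3.80 and -1.99 with the smaller pseudocount. Converted to fragments, the sgControl values rest on 32 to 53 fragments per library with PBS and 7 to 11 with lactate.

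Krt15, the basal type I keratin whose gene lies between Krt13 and Krt19, was at 0.0652, 0 and 0.0319 FPKM in sgControl cells with PBS and listed at 0 in the other 9 libraries. This corresponds to 3 fragments in the whole table. It did not pass a test in any comparison (exact permutation p = 0.4 for guide and for treatment, two-sided). The 400 arrangements allow 0.005 as the smallest p for a gene read in enough libraries. Krt15 was above 0 in only 2 libraries, both sgControl with PBS, so 0.4 was the smallest p it could reach. For this gene the test could therefore not decide.

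The type II genes were read at a few fragments per library. Krt8 was at 0.0302, 0.0333 and 0.0295 FPKM in sgControl cells with PBS, 1 fragment each, and at 0.209, 0.251 and 0.163 FPKM with lactate, 5 to 8 fragments. Its sgHcar1 libraries were at 0.101, 0.0682 and 0.0632 FPKM with PBS and 0, 0.0743 and 0.119 FPKM with lactate. The 3 sgControl lactate libraries were thus above the other 9. Without a filter on low values, over 26266 genes, limma called the difference between lactate and PBS in sgControl cells at 0.23 ± 0.04 (SE, adjusted p = 0.00109; 36.6% of genes called) and not in sgHcar1 cells at -0.02 ± 0.04 (SE, adjusted p = 0.815). The difference of these effects was -0.25 ± 0.06 (SE, adjusted p = 0.00702; 33.1% of genes called). Averaged over both guides, the exact permutation test of treatment within guide gave p = 0.06, and that of guide within treatment p = 0.245 (both two-sided).

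Krt7, the type II chain of ductal linings at chr15:101412403-101427806, was read mostly in sgHcar1 cells. Its PBS libraries there held 0.164, 0.129 and 0.214 FPKM, or 18, 14 and 25 fragments, and its lactate libraries 0.0305, 0.0604 and 0.0963 FPKM, or 3, 6 and 9 fragments. The sgControl libraries held 0.00816, 0.009 and 0.00798 FPKM with PBS and 0.00808, 0 and 0 FPKM with lactate, at most 1 fragment each. Every sgHcar1 library was above every sgControl library, and in sgHcar1 cells the 2 treatments did not overlap. The exact permutation test gave p = 0.005 for guide and p = 0.01 for treatment (two-sided). The latter was 0.03 without the third sgHcar1 PBS library or without the first sgHcar1 lactate library, and did not then pass adjustment over the 6 exact tests. In the fit without a filter Krt7 was higher in sgHcar1 cells by 0.21 ± 0.03 (SE) in PBS (limma adjusted p = 0.000108; 47.4% of genes called) while its lactate minus PBS difference in them was -0.14 ± 0.03 (SE, adjusted p = 0.00256; 43.0% of genes called). Between guides in lactate that fit gave 0.08 ± 0.03 for Krt7 (SE, adjusted p = 0.0335) and -0.18 ± 0.04 for Krt8 (SE, adjusted p = 0.00285), with 52.0% of genes called. The unequal direction of Krt7 and Krt18 with lactate in sgHcar1 cells is a description of these values and was not tested against one another.

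**Figure D3:**
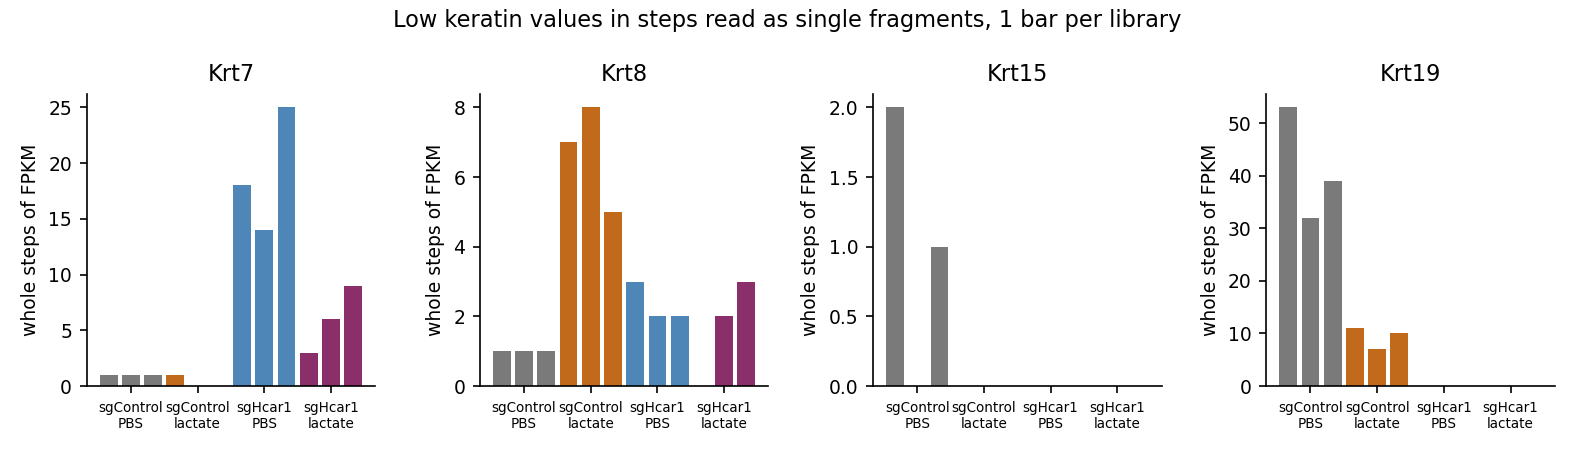
Whole steps of FPKM, each read as 1 fragment, for Krt7, Krt8, Krt15 and Krt19, with 1 bar per library coloured by group and a linear vertical axis of its own in each panel. Krt19 rests on 7 to 53 fragments in sgControl cells, Krt7 on 3 to 25 in sgHcar1 cells, Krt8 on at most 8 and Krt15 on at most 2 in any library.

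Among the chosen keratins that were read, summed FPKM was far to the type I side. Summed over Krt14, Krt15, Krt18 and Krt19, type I FPKM was 95.9 to 133 in the sgControl libraries and 44.7 to 114 in the sgHcar1 libraries. Summed over Krt7 and Krt8, type II FPKM was 0.0305 to 0.277 over all 12. This sum leaves out Krt80, a type II gene outside the chosen ones, which was at 10.8 to 40.9 FPKM in the same libraries. In sgHcar1 cells with PBS, Krt18 stood at 442, 710 and 718 times Krt8, and with lactate at 1526 and 960 times in the 2 libraries where Krt8 was above 0. Krt8 was read there as 3, 2 and 2 fragments with PBS and as 2 and 3 with lactate. These ratios are therefore rough, since 1 fragment more or less would move them far. FPKM is per length of the gene model, so these ratios compare levels between genes. Krt5, the usual partner of Krt14, was not analysed here.

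Among the other 44 keratin entries, 40 were below 1 FPKM in every library and 20 of those were listed at 0 throughout, with 0.220 FPKM as the highest value. The 4 that reached 1 FPKM were Krt10, Krt13 and Krt16 (type I) and Krt80 (type II). Krt80, a widely expressed chain of filaments near desmosomes, was the only type II keratin above 1 FPKM. It was at 20.4, 22.3 and 21.7 FPKM in sgControl cells with PBS and 40.9, 39.9 and 40.6 FPKM with lactate. In sgHcar1 cells it was at 10.8, 10.9 and 11.5 FPKM with PBS and 13.2, 11.6 and 12.6 FPKM with lactate. The sgControl lactate libraries stood highest and no 2 groups overlapped.

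Krt80 rose with lactate in sgControl cells by 0.89 ± 0.05 (SE, limma adjusted p = 2.93e-08). In sgHcar1 cells it rose by 0.16 ± 0.05 (SE, adjusted p = 0.0115), a call that ended under quantile normalization (0.07, adjusted p = 0.192) and a direction that turned when each library was rescaled to a sum of 1000000 (-0.02, adjusted p = 0.809), the adjusted p running from 0.00204 to 0.809 over the alternatives. The difference between the lactate effects was -0.73 ± 0.07 (SE, adjusted p = 4.85e-06). The sgHcar1 minus sgControl difference of Krt80 was -0.90 ± 0.05 (SE) in PBS and -1.62 ± 0.05 (SE) in lactate. Counting Krt80 with Krt7 and Krt8, the type II total was thus mostly Krt80 in every library of both guides.

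Krt13, the type I chain of internal stratified epithelia, followed the order of Krt19. Its sgControl libraries held 2.09, 2.23 and 2.04 FPKM with PBS and 0.345, 0.330 and 0.479 FPKM with lactate, and all sgHcar1 libraries were listed at 0. It fell with lactate by 1.17 ± 0.07 (SE, limma adjusted p = 4.21e-08), and its PBS mean was 5.52 times its lactate mean. Krt13 reached 1 FPKM only in the sgControl PBS libraries, so this fall follows in part from passing the minimum, and it was -2.21 with a pseudocount of 0.1. Krt16, a type I chain of wounded and hyperproliferating epidermis, was at 1.62, 1.91 and 1.55 FPKM with PBS and 0.983, 1.80 and 1.99 FPKM with lactate in sgControl cells, groups that overlap (-0.07 ± 0.13, SE, adjusted p = 0.648), and was listed at 0 in sgHcar1 cells. Krt10, the type I chain of differentiating epidermis, was read for both guides, at 0.717 to 2.49 FPKM in sgControl and 1.47 to 2.94 FPKM in sgHcar1 cells. It fell with lactate by 0.72 ± 0.12 (SE, adjusted p = 0.000272) and 0.41 ± 0.12 (SE, adjusted p = 0.00913) respectively, and the difference of these effects was 0.31 ± 0.17 (SE, adjusted p = 0.138). With a pseudocount of 0.1 the sgControl change was -1.18 and the difference 0.60 (adjusted p = 0.0744), and with libraries rescaled to a sum of 1000000 the sgHcar1 change was -0.67.

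Position along the 2 clusters showed the same division in part, with many entries at few or no fragments. On chromosome 11, in gene order, Krt13, Krt15, Krt19, Krt14 and Krt16 were read in sgControl cells and, but for 1 fragment of Krt14, listed at 0 in sgHcar1 cells, with Krt9 between them. Of these, Krt15 rests on 3 fragments in all. Krt17, the next gene after Krt16, was read for both guides at no more than 2 fragments in a library. Krt10, at the other side of the cluster, was also read for both guides. On chromosome 15 Krt80 and Krt18, the entries at the ends of the cluster, were the only ones above 1 FPKM. Krt79 and Krt78, the entries before Krt8, were read only in sgControl cells, at 23 and 20 fragments over all libraries. Krt14 and Krt16 are close in sequence, and how the counting treated fragments that match both is not given in the sources used here, so the low Krt16 values are uncertain beside the high Krt14 values.

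**Figure D4:**
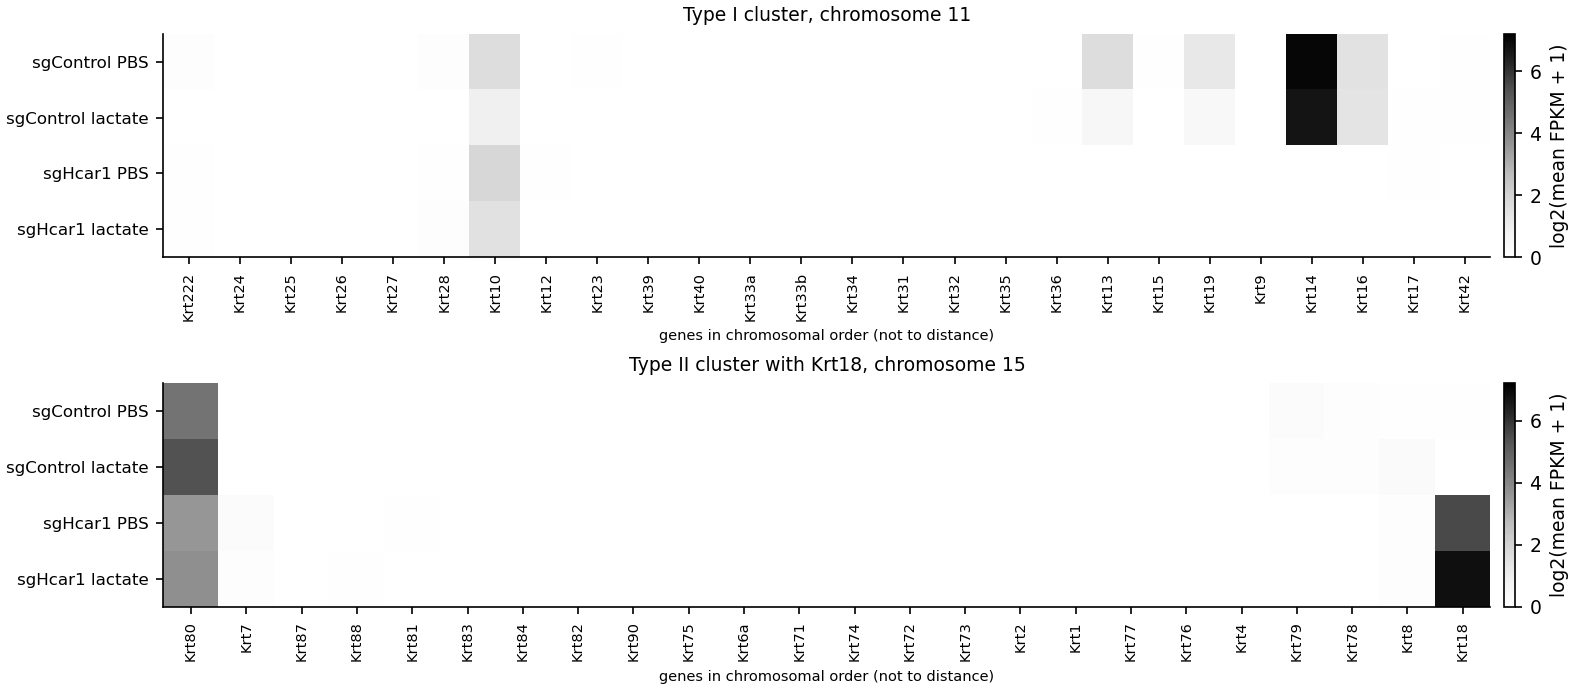
Mean level of each keratin gene, log2(mean FPKM + 1) by shade, in the 4 groups, with genes in RefSeq order along chromosome 11 (top) and chromosome 15 (bottom), not to distance. The dark cells of Krt14 fall in the sgControl rows, those of Krt18 in the sgHcar1 rows, and Krt80 is read in all 4 rows.

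The division of Krt14 and Krt18 by guide was set beside all tested genes with a rule chosen after their values were seen, at least 10 FPKM in all 6 libraries of 1 guide and at most 0.1 in all 6 of the other. It was met by 65 genes (0.473%) in favour of sgControl, among them Krt14, and by 13 genes (0.0946%) in favour of sgHcar1, among them Krt18. The genes with profiles most like that of Krt14 over the 12 libraries, by the root mean square difference of log2 values after each gene's mean was removed, were Fstl1 (0.210), Bgn (0.274) and Col6a3 (0.336), all genes of secreted or matrix proteins. Fstl1 went from 249 and 149 FPKM in sgControl cells (PBS, lactate) to 0.963 and 0.468 FPKM in sgHcar1 cells. Nearest to Krt18 were Ifi202b (0.193), Oasl1 (0.207) and Tmem176b (0.342), the first pair being known as interferon-induced genes. Oasl1 was at 0.143 and 0.256 FPKM in sgControl and 41.3 and 105.8 FPKM in sgHcar1 cells.

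The colon label was compared with markers. Epcam, an adhesion protein of epithelia, and Cdx2, the intestinal transcription factor, were listed at 0 in all 12 libraries, and Vil1 (villin) did not exceed 0.234 FPKM. Other intestinal markers were read at low level, Lgals4 of colonocytes at 0.731 to 1.40 FPKM and Clca1 of goblet cells at 0.461 to 2.81 FPKM over the 12 libraries. Cdh1 (E-cadherin) averaged 1.72 ± 0.210 and 4.53 ± 0.140 FPKM (SD, n = 3) in sgControl cells with PBS and lactate, against 0 in each sgHcar1 library. Of the 9 simple epithelial markers, 4 were listed at 0 in all 3 libraries of each sgHcar1 group. The count was also 4 in sgControl cells with lactate, and 2 in those with PBS. In sgHcar1 cells the summed level of the list, 44.9 to 48.7 FPKM with PBS and 111 to 114 FPKM with lactate, was almost all Krt18. Of the 7 basal and squamous markers measured, Krt14 made up nearly all of the summed level in sgControl cells (96.0 to 133 FPKM), and Trp63, the transcription factor that defines basal cells, did not exceed 0.0342 FPKM. The 8 mesenchymal markers were each at 1 FPKM or more in all libraries, summing to 839 to 971 FPKM in 3 groups and 1246 to 1276 FPKM in sgHcar1 cells with PBS. Most of the sum was Vim, at 504 to 987 FPKM. Between guides in PBS, Fn1, Cdh2 and Twist1 were higher in sgHcar1 cells, by 3.17, 1.18 and 0.53 on the log2 scale. Zeb1, Snai1 and Snai2 were lower there (-0.39, -0.71 and -0.26), and Zeb2 was not called (0.02, limma adjusted p = 0.729). The 8 fibroblast markers, 2 of them listed at 0 in every group, summed to 129 to 150 FPKM in those other than sgHcar1 with lactate, at 66.8 to 72.6 FPKM. Within this sum the members differed in opposite ways between guides in PBS: Col3a1 averaged 67.2 FPKM in sgControl and 1.55 in sgHcar1 cells, Dcn 7.83 and 0.293 and Pdgfra 5.02 and 0.462, while Col1a1 averaged 1.01 and 23.1 and Col1a2 45.5 and 114.6. The part of any other cell type or population in the keratin values was not tested, and in bulk RNA fewer cells of a type and less RNA per cell cannot be told apart.

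Other intermediate filaments gave a mixed picture, 7 of 16 genes being tested. With lactate 1 rose and 5 fell in either guide, where 65.7% (sgControl) and 72.2% (sgHcar1) of all genes were called, with median log2 changes of -0.22 in sgControl and -0.85 in sgHcar1 cells against 0.00 over all genes. Vim, the filament protein of mesenchymal cells, averaged 864 ± 15.2 FPKM in sgControl cells with PBS and 742 ± 15.5 with lactate, and 972 ± 14.0 and 541 ± 32.4 FPKM in sgHcar1 cells (SD, n = 3). Vim fell with lactate for both guides, by 0.22 ± 0.04 and 0.85 ± 0.04 (SE) on the log2 scale, and its level was several times that of the keratins. Its difference between guides in PBS, 0.17 ± 0.04 (SE, limma adjusted p = 0.00303), turned to -0.26 (adjusted p = 3.83e-05) under quantile normalization. Nefm, a neurofilament chain, shared the division of Krt18: it was listed at 0 in sgControl cells and rose with lactate in sgHcar1 cells from 5.99 ± 0.402 to 28.7 ± 0.902 FPKM (SD, n = 3; 2.09 ± 0.05 on the log2 scale). Nes, the filament protein of progenitor cells, was at 0.536 and 0.326 FPKM in sgControl and 8.76 and 6.59 FPKM in sgHcar1 cells (PBS first).

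Of 22 genes of desmosomes and other structures to which keratins attach, 10 were tested. With lactate 2 rose and 2 fell in sgControl cells (65.7% of all genes called) and 1 rose and 4 fell in sgHcar1 cells (72.2% of all genes). Between guides in PBS 3 were higher and 7 lower in sgHcar1 cells (median -0.59; 76.7% of all genes). With libraries rescaled to a sum of 1000000, 1 was higher and 7 lower in PBS, and with lactate in sgControl cells 3 rose and 1 fell. Quantile normalization gave 3 and 2 for the latter. Itgb4, the hemidesmosome integrin chain, went with Krt14: it averaged 39.5 ± 0.794 and 41.9 ± 0.884 FPKM in sgControl cells (PBS, lactate) and 0.426 ± 0.0496 and 0.523 ± 0.114 FPKM in sgHcar1 cells (SD, n = 3), a difference of -4.83 ± 0.05 (SE, limma adjusted p = 2.55e-14) in PBS. Its partner chain Itga6 was higher in sgHcar1 cells in PBS by 1.65 ± 0.04 (SE, adjusted p = 1.39e-11). Plec (plectin, which ties filaments to hemidesmosomes) fell with lactate by 0.56 ± 0.05 (SE) in sgControl and by 1.44 ± 0.05 (SE) in sgHcar1 cells. With lactate in sgControl cells Itgb4 differed by 0.09 ± 0.05 (SE, adjusted p = 0.179), a difference that was called under quantile normalization (0.14, adjusted p = 0.0377).

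Of 20 genes of proteins that bind, modify or degrade keratins, 15 were tested. In sgControl cells 7 rose and 4 fell with lactate, and in sgHcar1 cells 6 rose and 5 fell, with medians of 0.04 and 0.01. These counts are close to the shares over all genes, 65.7% and 72.2%. After rescaling to that common sum, 5 rose and 9 fell in sgHcar1 cells. Fam83h, which brings casein kinase to keratin filaments, was higher in sgHcar1 cells by 2.18 ± 0.06 (SE, limma adjusted p = 6.12e-11) in PBS. Klhl24, a ubiquitin ligase adaptor that acts on Krt14, rose with lactate by 1.42 ± 0.05 (SE) in sgControl and 1.38 ± 0.05 (SE) in sgHcar1 cells, and the difference of these effects was -0.04 ± 0.07 (SE, adjusted p = 0.605). Hspb8, a small heat shock protein, rose with lactate by 0.35 ± 0.04 (SE) in sgControl and by 1.69 ± 0.04 (SE) in sgHcar1 cells.

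Of 23 transcription factors and epithelial state genes tied to keratin transcription, 8 were tested. In sgControl cells 6 rose and none fell with lactate (median 0.38), and in sgHcar1 cells 6 rose and 1 fell (median 0.60). Over all genes 33.9% rose and 31.9% fell in sgControl cells, and 36.8% and 35.4% in sgHcar1 cells. Klf4, a Krüppel-like factor of differentiating epithelium, averaged 119 ± 3.16 and 256 ± 1.14 FPKM in sgControl cells (PBS, lactate) and 25.8 ± 0.728 and 29.4 ± 2.34 FPKM in sgHcar1 cells (SD, n = 3). Klf5, the Krüppel-like factor of proliferating epithelium, had the opposite order, with 4.66 ± 0.275 and 6.66 ± 0.566 FPKM in sgControl and 12.7 ± 1.33 and 62.8 ± 2.09 FPKM in sgHcar1 cells. Klf5 rose with lactate in sgHcar1 cells by 2.23 ± 0.07 (SE, limma adjusted p = 3.43e-10), and Klf4 rose in sgControl cells by 1.10 ± 0.05 (SE, adjusted p = 4.95e-09). Krt18 was highest in sgHcar1 cells with lactate as well, and a link of either factor with a keratin gene was not tested. The smaller Klf4 change in sgHcar1 cells, 0.18 ± 0.05 (SE, adjusted p = 0.00531), turned to -0.0018 (adjusted p = 0.997) when libraries were rescaled to a sum of 1000000. Grhl2, Elf3 and Ovol1 did not exceed 0.333 FPKM in any library, and Ehf was listed at 0. Elf3 averaged 0.262 FPKM in sgHcar1 cells with lactate and 0.00979 FPKM with PBS. Grhl1 rose with lactate in sgHcar1 cells from a mean of 0.299 to 2.53 FPKM (1.45 ± 0.10, SE, limma adjusted p = 1.35e-07). Grhl1 reached 1 FPKM only in the sgHcar1 lactate libraries, so this rise follows in part from passing the minimum.

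**Figure D5:**
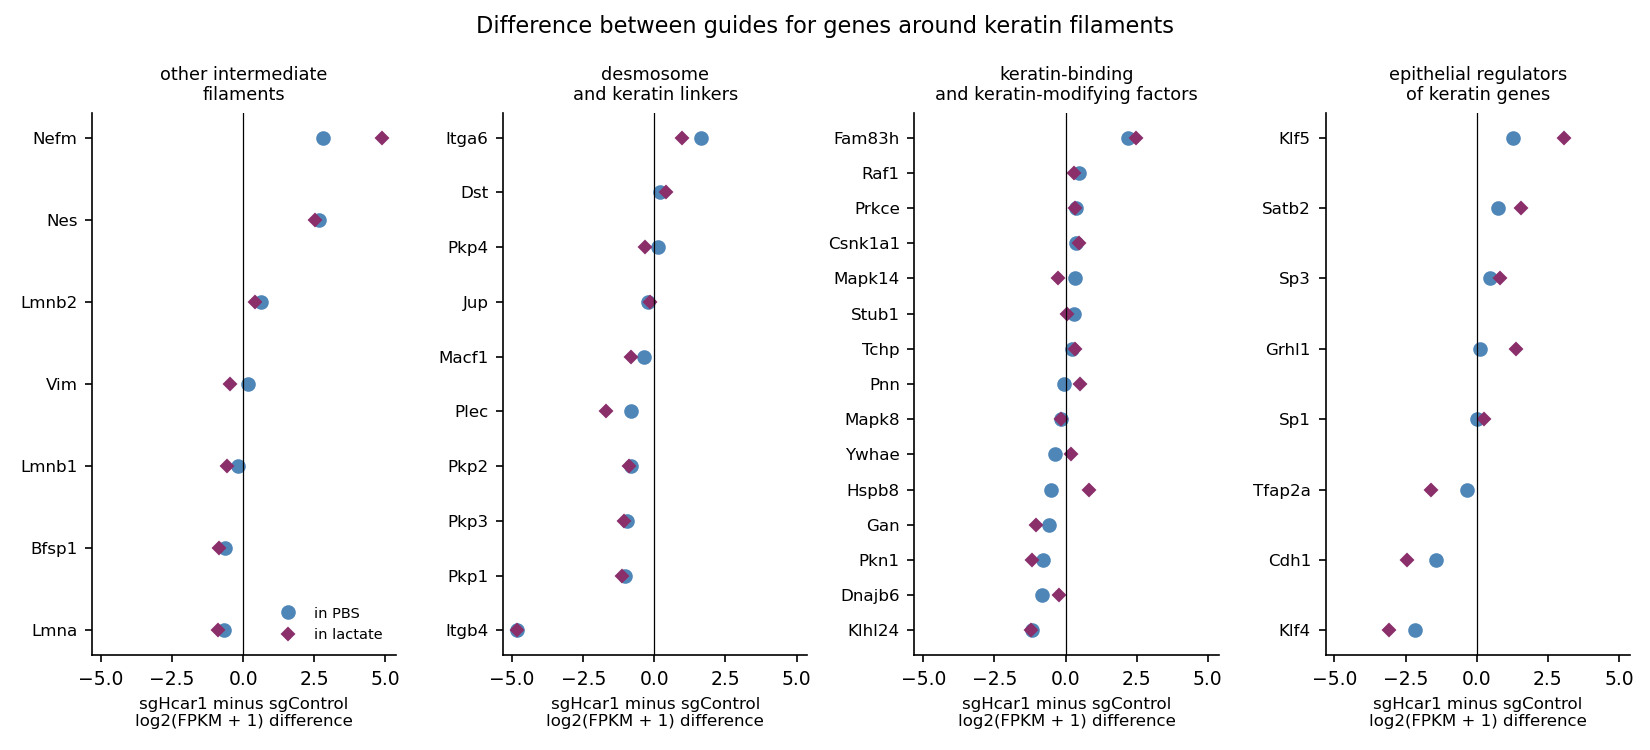
Difference between guides, sgHcar1 minus sgControl in log2(FPKM + 1), for the tested genes of 4 lists, with circles for PBS and diamonds for lactate. Itgb4 lies near -4.83 in both treatments, Nefm, Nes, Fam83h and Klf5 lie above 0 and Klf4 and Cdh1 below 0 in both.

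Library measures that touch these values were as follows. Hcar1, the targeted gene, was listed at 0 in 11 of 12 libraries and at 0.0196 FPKM in the other, so its level does not check the guide labels. Relative depth recovered from the FPKM steps was 0.746 to 1 of the deepest library. The sum of FPKM over genes was 310109 to 324562 in sgControl libraries, 362815 to 367977 in sgHcar1 libraries with PBS and 411996 to 421984 in those with lactate. Rescaling each library to a common sum shifted the median gene by -0.12 for lactate in sgHcar1 cells, -0.21 for the difference of the lactate effects, and -0.16 and -0.37 for the guide in PBS and in lactate. The split of higher and lower calls then went from 5050 and 4867 to 3991 and 5985, from 4170 and 3947 to 2475 and 5754, from 5249 and 5280 to 4032 and 6426, and from 5678 and 5614 to 3580 and 7710 in that order. The calls of Krt14, Krt18 and Krt19 kept their side and direction under it in all 5 comparisons.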

How the data were processed

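RNA sequencing libraries of MC38 cells, 3 per combination of guide and treatment, were analysed from 1 table. The authors deposited FPKM values, per the file headers, 1 per gene and library, and every one of the 12 value columns entered the analysis. The letters in the column names gave the groups, and the letter for sgHcar1 was read by elimination. Per the submitters' processing notes, build GRCm38 was used with featureCounts 1.5.0-p3 and HISAT2 2.0.5; strandedness, filters and the treatment of fragments shared by similar genes are not given in the sources used here. Per the labels, total RNA went into TruSeq libraries.

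The keratins and the gene lists were chosen with earlier results of these data known, so nothing here is independent of them. The test was limma's (version 3.58.1, R 4.3.3) on log2(FPKM + 1) values (intensity trend, 1 mean per group, all 12 libraries, no replicate block). The fit covered the 13736 genes that reached 1 FPKM in 3 or more libraries, and p-values were two-sided and adjusted by the Benjamini-Hochberg method over all of them in each of 5 contrasts, with a threshold of 0.05. Keratins below the filter were compared with exact permutation tests within strata (6 tests). The procedure was tested on simulated data. Relative depth and fragments per library were recovered from the steps of low FPKM values, which are whole multiples of the value of 1 fragment of a gene (tolerance 0.02). The genes named are the keratins, any other keratin reaching 1 FPKM, list members among the 4 with the largest called change in a contrast, the 3 genes nearest in profile to each keratin averaging 1 FPKM or more, and neighbouring genes. Grhl2, Elf3, Ovol1, Ehf and the markers named were picked outside this rule, after their values were seen. Precision is limited by 3 libraries per group, and counts recovered from low values carry counting error as well. Alternatives were the pseudocount, the filter, 3 scalings, a replicate block and leaving out each library. Positions and promoters came from RefSeq (GRCm38.p6), matched by symbol. Python 3.11.15 with pandas 2.3.3 and matplotlib 3.10.9 was used for descriptions and figures.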

Additional observations from a re-analysis of the deposited data

Results flagged for a closer look

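The effect of lactate differed between the 2 guides, by the interaction term of the limma fit (sgHcar1 effect minus sgControl effect, log2 scale), for 5 keratin genes, against 59.1% of all genes tested. The other keratins tested, Krt10 and Krt16, were not called (adjusted p = 0.138 and 0.753). For Krt18 the difference was 1.31 (adjusted p = 4.08e-08), with a rise in sgHcar1 cells and nearly no Krt18 in sgControl cells. For Krt14 it was 0.32 (adjusted p = 0.00138), for Krt19 0.82 (adjusted p = 0.000236) and for Krt13 1.17 (adjusted p = 1.66e-06). These 3 fell in sgControl cells and were at or near 0 in sgHcar1 cells, where no fall could have been measured, and the Krt14 difference was not called with a pseudocount of 0.1. For Krt80 the difference was -0.73 (adjusted p = 4.85e-06), between groups that all held the gene, with a rise in sgControl cells larger than that in sgHcar1 cells.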

How the results depend on the processing

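Over the alternatives, 306 of the 307 values recomputed for Krt14, Krt18 and Krt19 kept their direction and their side of the threshold. The exception was the Krt14 difference between the lactate effects with a pseudocount of 0.1 (0.20). There the sgControl change stayed at -0.34, and the sgHcar1 change went from -0.02 to -0.14. In sgHcar1 cells Krt14 was read as 1 fragment in 1 library, and the cause of the lost call was not tested. With that pseudocount, log2 changes of genes listed at or near 0 in 1 group grew by construction, to 8.56 for Krt18 and -10.2 for Krt14 between guides in PBS. Keeping only genes with a mean of at least 5 FPKM left 1 keratin called with lactate in sgControl cells, since Krt19 is below it, and 6815 and 7191 genes called between guides in PBS and in lactate, as fewer genes were tested. Without a filter on low values, in which Krt7, Krt8 and Krt15 were also tested, 2 keratins were called with lactate in sgHcar1 cells, 5 for the difference of the lactate effects and 5 between guides in lactate (43.0%, 33.1% and 52.0% of all genes). Krt80 with lactate in sgHcar1 cells reversed to -0.0164 with libraries rescaled to a common sum. The Krt10 difference between guides in PBS, 0.26 (adjusted p = 0.0711), was called under quantile normalization (0.35, adjusted p = 0.0209) and without the second sgControl PBS library (0.35, adjusted p = 0.026). Leaving out each library in turn, the keratins called stayed at 2, 1, 3, 3 and 3. The number of the 6 exact tests below the filter that passed after adjustment over those tests ran from 1 to 2. The test of Krt7 for treatment was the one lost, without the third sgHcar1 PBS library (exact permutation p = 0.03 before adjustment) or without the first sgHcar1 lactate library. The ratio of mean Krt18 to mean Krt8 in sgHcar1 cells with PBS, 596, ran from 549 to 714, and rests on 2 or 3 Krt8 fragments per library.

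Deviations of same-numbered libraries from their group means had correlations of -0.0407 to 0.085. With 3 libraries per group, this cannot show whether same-numbered libraries shared a culture, day or batch. With a replicate block, 2, 1, 3, 3 and 3 keratins were called, and 8938, 9899, 8044, 10480 and 11260 genes, in the order lactate in sgControl, lactate in sgHcar1, their difference, guide in PBS and guide in lactate. In none of the 4 pairs of groups did every library correlate best with its own number. The values of Krt7, Krt8, Krt15 and, in lactate, Krt19 are limited by the few fragments behind them, and those of Krt14 and Krt18 by 3 libraries a group.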
